A study of Rattus norvegicus with 60 samples.

Results

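Respiratory complex I is the NADH dehydrogenase of the inner mitochondrial membrane, and the genes described here encode its nuclear subunits. They were taken from an RNA table of CA1 tissue, a field of the rat hippocampus needed for contextual memory, as the rows whose symbol has the form Ndufa, Ndufab, Ndufb, Ndufc, Ndufs or Ndufv followed by a number and whose mean over all 34 libraries was at least 1 FPKM (fragments scaled to transcript length and to the mapped depth of the library), with 1 row per symbol, the one with the higher mean. Of 22865 rows in the table, 43 matched the pattern, 41 of these reached the minimum and 38 symbols remained. The 2 rows below the minimum were Ndufb4l1, at a mean of 0.171 FPKM, and Ndufb3l, at 0.0504, while the lowest row above it was Ndufa4l2, at 2.21 FPKM. A further 3 rows were second rows of a member symbol (NDUFB4 on chromosome X, Ndufs5 on chromosome 5 and Ndufv3 on chromosome 20). All 38 members passed the filter on low values. Ndufb1 was not analysed here.

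All animals were Sprague-Dawley rats aged 90 to 120 d. The RNA came from 6 threat 24 h, 5 place 24 h, 8 threat 1 h, 6 place 1 h and 9 naive libraries, made from polyA+ RNA. Methylated DNA, captured with a methyl-binding domain protein (MBD), was sequenced at each of 1 h and 24 h from 3 threat, 4 place and 3 naive samples, with 3 input samples that were not captured. Threat and place animals belong to contextual threat recognition training, and the labels say no more of what each of these groups experienced. They give no time for the naive RNA and do not say that replicates were separate animals, so the spread behind each p-value is that between libraries and may be technical. The naive RNA samples therefore served both times, and every comparison with them shares them. They are listed in the deposited table in 2 blocks, 5 to 9 ahead of 1 to 4. This is an order of columns and not a labelled batch, but many mRNAs differed between the blocks in earlier work on these data, so comparisons with naive tissue are given against each block too. The RNA table gives no read totals; each library had 12472 to 12947 genes at 1 FPKM or more. The MBD and input libraries held 31.4 to 39.9 M reads at 1 h and 42.2 to 59.5 M at 24 h.

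Complex I takes electrons from NADH and passes them along a flavin and a chain of iron-sulphur clusters in its matrix arm to ubiquinone, while its membrane arm pumps protons. In mammals the core subunits of the matrix arm are encoded in the nucleus, those of the membrane arm in mitochondrial DNA, and accessory subunits surround both. Neurons of the hippocampus draw most of their ATP from oxidative phosphorylation. By position in the complex, the 38 members fall into 7 core subunits of the matrix arm, 9 accessory subunits of the matrix arm, 9 of the proximal membrane arm, 10 of the distal membrane arm (the Ndufb subunits) and the acyl carrier Ndufab1, which also serves mitochondrial fatty acid synthesis. The pair Ndufa4 and Ndufa4l2 carries the family's symbol but is known from complex IV, cytochrome c oxidase. The 13 protein genes of mitochondrial DNA, 7 of them complex I subunits, were all listed at 0 in every library, so the mitochondrially encoded part of the core has no usable value here.

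The promoters are shown because captured DNA was measured at the gene starts too. For the 3 members with the lowest p in the comparison that called most members (threat 24 h against threat 1 h), the RefSeq promoters, 250 bases before the start and 50 after it in build GRCr8, read as follows, 5′ to 3′ on the gene's strand, with each CG dinucleotide, the site that DNA methylation acts on, in capitals.
Ndufa5 promoter, chr4:53971186-53971485, minus strand: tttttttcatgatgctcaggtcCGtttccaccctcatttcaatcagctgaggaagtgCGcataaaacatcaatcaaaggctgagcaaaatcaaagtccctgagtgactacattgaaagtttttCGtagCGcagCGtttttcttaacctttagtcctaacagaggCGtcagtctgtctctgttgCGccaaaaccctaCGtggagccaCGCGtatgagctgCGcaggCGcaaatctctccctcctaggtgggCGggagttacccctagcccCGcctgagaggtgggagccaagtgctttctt
Ndufc2 promoter, chr1:161122940-161123239, plus strand: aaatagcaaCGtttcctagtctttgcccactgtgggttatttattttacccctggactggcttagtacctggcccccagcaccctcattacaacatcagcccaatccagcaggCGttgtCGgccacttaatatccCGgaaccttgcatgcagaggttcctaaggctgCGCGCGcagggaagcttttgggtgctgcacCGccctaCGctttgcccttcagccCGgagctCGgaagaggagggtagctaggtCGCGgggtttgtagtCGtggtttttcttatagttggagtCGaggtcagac
Ndufa4 promoter, chr4:40975510-40975809, minus strand: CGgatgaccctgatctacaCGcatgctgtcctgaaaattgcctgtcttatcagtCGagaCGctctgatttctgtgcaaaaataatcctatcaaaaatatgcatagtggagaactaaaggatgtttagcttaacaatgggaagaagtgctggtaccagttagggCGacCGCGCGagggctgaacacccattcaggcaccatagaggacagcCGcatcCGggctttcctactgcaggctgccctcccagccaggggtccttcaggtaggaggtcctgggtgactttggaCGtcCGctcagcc
These 3 hold 14, 15 and 12 CG dinucleotides in 300 bases. RefSeq promoters were found for 35 of the 38 members, with a median of 20 CG (range 8 to 39), against a median of 7 over all 33469 promoters in the table. For Ndufs5, Ndufs6 and Ndufv3 the RefSeq promoter belongs to another locus than the RNA row.

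Among 4 motifs searched on both strands, the YY1 letters AAGATGGCG were found in 7 of 35 member promoters (20%), against 1.73% of all promoters. The ETS letters CCGGAAG were in 7 of 35 (20%), against 8.75% of all. The NRF1 core GCATGCGC was in 2 of 35 (5.71%, against 2.47%) and the ERR letters TCAAGGTCA in 0 of 35, against 0.433%. The set of all promoters was not matched to the members in expression or in CG (a median of 7 against 20). These shares are therefore not read as particular to complex I genes. Ndufa2 and Ndufa6 held both the YY1 and the ETS letters. All 7 YY1 matches lay on the gene's own strand, downstream of the annotated start, with their first base between 5 and 27 bases after it; a 30-base window around each is shown to let them be compared, with the match in capitals.
Ndufa2, chr18:28631839-28631868, minus strand: tttgctagcaAAGATGGCGgccgcaagccg
Ndufa6, chr7:115750283-115750312, minus strand: cttccttagcAAGATGGCGgccgcggccag
Ndufa9, chr4:161374141-161374170, minus strand: attgtgggagAAGATGGCGgccgccgtccg
Ndufb8, chr1:253362896-253362925, minus strand: ggagaaggtgAAGATGGCGgcgtcccgggc
Ndufs4, chr2:47794891-47794920, minus strand: tgcccacaggAAGATGGCGgcggtctcaat
Ndufs6, chr1:31797413-31797442, plus strand: ggtcgtcggcAAGATGGCGgcggcgctgac
Ndufs7, chr7:10110475-10110504, minus strand: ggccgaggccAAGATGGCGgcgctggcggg
In all 7 the match was followed directly by gc. A match describes these letters and was not tested as a binding site.

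Steady-state levels ran over a wide range. Ndufb9 had the highest mean of all, 165.8 FPKM over 34 libraries with a coefficient of variation (CV) of 6.15%, followed by Ndufb8 at 153.9, Ndufa4 at 149.6 and Ndufa8 at 110.3 FPKM. Ndufa10 had the lowest mean among the known complex I subunits, 21.4 FPKM, and also the smallest CV (4.71%). Neither Ndufb9, Ndufb8 nor Ndufa10 passed a test in any of the 9 comparisons of the study's groups: Ndufb9 averaged 167 ± 11.1 FPKM (SD, n = 6) in threat 24 h, 169 ± 11.9 (n = 5) in place 24 h, 164 ± 10.1 (n = 8) in threat 1 h, 165 ± 13.9 (n = 6) in place 1 h and 165 ± 7.65 (n = 9) in naive libraries. Ndufa4l2, a paralog of Ndufa4 known for its induction by hypoxia, stood apart at 2.21 FPKM with a CV of 27.6%. Core subunits of the matrix arm lay between Ndufs8 at 43.5 and Ndufv2 at 99.2 FPKM, and Ndufs1, the large iron-sulphur subunit, at 48.8 FPKM. In the order of levels, 29 of 37 neighbouring pairs lay within the larger of their SDs; the 8 that did not were Ndufb9 and Ndufb8, Ndufa4 and Ndufa8, Ndufa8 and Ndufv2, Ndufc1 and Ndufa13, Ndufv3 and Ndufb3, Ndufa3 and Ndufs6, Ndufs6 and Ndufa10, and Ndufa10 and Ndufa4l2. The subunits of 1 assembled complex are present once each as proteins, with the exception of the acyl carrier, but their mRNA levels per length differed several-fold.

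**Figure D1:**
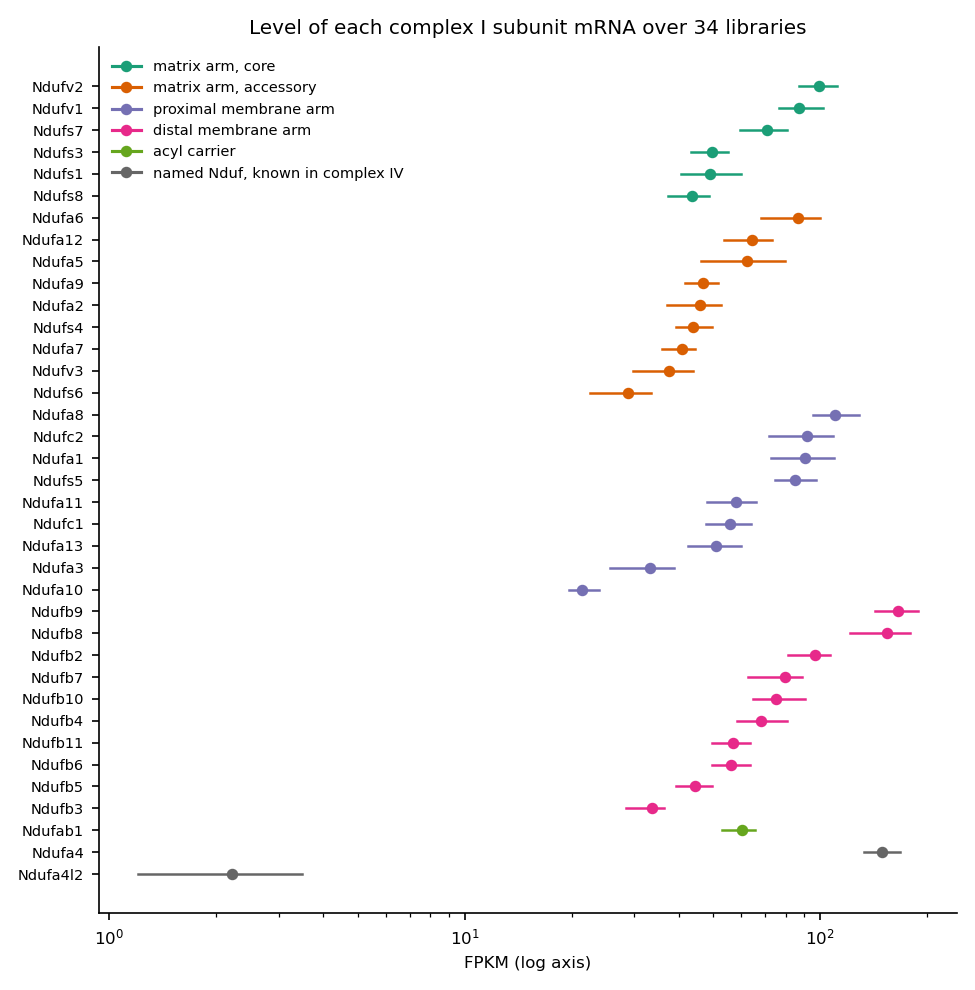
Mean FPKM (points) and the range over 34 libraries (lines) of each member shown, on a log axis, grouped and coloured by position in the complex. Ndufb9 is highest at 165.8 FPKM and Ndufa4l2 lowest at 2.21 FPKM, while the other members lie between 21.4 and 153.9 FPKM.

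Several of these rows are uncertain. The member rows of Ndufs5 (chromosome 2, 215419281 to 215419757), Ndufs6 (chromosome 2, 45600795 to 45601209) and Ndufv3 (chromosome 13, 56353959 to 56354285; positions of RNA rows and bins are in rn5) are 477, 415 and 327 nt long, and RefSeq lists Ndufs5-ps2, Ndufs6-ps1 and Ndufv3-ps1 as pseudogenes on those chromosomes, with the genes on 5, 1 and 20. The second NDUFB4 row on X is 393 nt long, and stood at 51.8 FPKM beside 67.9 for the Ndufb4 row on chromosome 11. In all, RefSeq names 39 pseudogenes after 17 of the members, so reads of near-identical copies may be split between rows, and values of Ndufs5, Ndufs6, Ndufv3 and Ndufb4 are given with that limit.

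Taken as a sum, the 38 members made up about 1 percent of all FPKM in every group. The summed level was 2702 ± 63.9 FPKM (SD, n = 6) in threat 24 h, 2694 ± 113 (n = 5) in place 24 h, 2550 ± 102 (n = 8) in threat 1 h, 2536 ± 123 (n = 6) in place 1 h and 2540 ± 70.8 FPKM (n = 9) in naive libraries. As a share of the FPKM of all genes this was 0.998% ± 0.018, 0.992% ± 0.031, 0.963% ± 0.030, 0.960% ± 0.040 and 0.967% ± 0.019, in the same order. The lowest sums were those of place 1 h replicate 3 (2326) and threat 1 h replicate 3 (2347 FPKM). The FPKM of all genes summed to 268661 to 274775 in threat 24 h and 267370 to 275423 in place 24 h libraries. Each of these totals lay above all naive ones (256901 to 267268). The totals were 259151 to 268958 in threat 1 h and 261502 to 268158 in place 1 h libraries, which overlap with 24 h. The main fits used FPKM without scaling to this total, and results under quantile normalization are given beside them below. In bulk tissue, more RNA per cell and more cells that express a gene cannot be told apart.

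At 24 h after threat training, 11 of 38 members were higher than in naive CA1 and 1 was lower, where 4.32% of all 13153 genes tested were higher and 5.77% lower (limma, Benjamini-Hochberg adjusted p under 0.05 over all genes). The 11 came from the accessory subunits and Ndufa4: 2 of 9 accessory subunits of the matrix arm (Ndufa5 and Ndufa9), 3 of 9 of the proximal membrane arm (Ndufa1, Ndufa13 and Ndufc2), 4 of 10 of the distal membrane arm (Ndufb2, Ndufb4, Ndufb6 and Ndufb10), Ndufab1 and Ndufa4. Of the 7 core subunits 0 passed, with a median difference of 0.085 log2, against 0.064, 0.086 and 0.053 in the 3 accessory groups. Differences were small throughout: the median over the 38 was 0.081 on the log2(FPKM + 1) scale and 35 of 38 were above 0, while the median of all genes was 0.011 and 53.7% lay above 0. With all libraries quantile-normalized to 1 distribution, 1 member was higher (Ndufa4) and 0 were lower, against 2% of all genes higher and 5.25% lower, and the medians were 0.027 for the members and 0.010 for all genes.

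Ndufa4 (chromosome 4, 38070978 to 38078251), a subunit of complex IV, had the lowest p. Its level ran from 156 to 168 FPKM with a median of 160.0 in the 6 threat 24 h libraries, and from 135 to 151 with a median of 144.5 in the 9 naive ones. The groups did not overlap. The difference was 0.16 ± 0.03 log2 (SE; limma adjusted p = 0.00146), and it was called in all 15 fits that left out 1 library of either group.

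Ndufab1 (chromosome 1, 199110335 to 199120094), the acyl carrier, had 62.6 to 65.2 FPKM with a median of 64.1 in threat 24 h libraries and 52.9 to 60.9 with a median of 58.4 in naive ones, again without overlap. It was 0.15 ± 0.03 log2 higher (limma adjusted p = 0.00486). Ndufa13 (chromosome 16, 21191327 to 21198326), an accessory subunit of the proximal membrane arm, had 54.5 to 58.8 FPKM with a median of 56.2 in threat 24 h and 42.4 to 55.6 with a median of 49.9 in naive libraries, and was 0.18 ± 0.05 log2 higher (adjusted p = 0.0148). Only naive 9 reached into the threat 24 h range. Ndufa9 (chromosome 4, 232213354 to 232241728), an accessory subunit near the quinone site, had 48.3 to 51.6 FPKM with a median of 49.7 in threat 24 h and 42.3 to 49.8 with a median of 45.4 in naive libraries, and was 0.13 log2 higher (adjusted p = 0.0165). Ndufab1, Ndufa13 and Ndufa9 were likewise called in all 15 fits. The other 7 higher members were each lost in at least 1 of these fits: Ndufa1 in 1, without threat 24 h replicate 2, and Ndufb2 in 12. Ndufb10 (77.4 to 86.4 FPKM in threat 24 h, 64.5 to 77.3 in naive libraries) was the third member whose groups did not overlap. In all, 3 of 38 members, and 0.327% of all genes, lay wholly above naive tissue.

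Ndufa4l2 (chromosome 7, 70995344 to 70996777) was the 1 lower member. It had 1.22 to 2.27 FPKM with a median of 1.80 in threat 24 h libraries and 1.63 to 3.48 with a median of 2.73 in naive ones. Of the naive libraries, naive 1 lay below the threat 24 h median. The difference was −0.40 ± 0.12 log2 (limma adjusted p = 0.0341), called in 8 of 15 fits that left out 1 library; at this level the added 1 FPKM shrinks the fold.

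These calls depended on the naive block. Against naive 1 to 4 alone, 15 members were higher and 1 lower at threat 24 h, where 15.6% of all genes were higher and 14.6% lower, and 10 of the 11 members called with all naive libraries were among the 15. Against naive 5 to 9 alone 0 members passed either way (limma), where 0.076% of all genes were higher and 0.433% lower, and 12 members had an unadjusted p under 0.05, against 10.6% of all genes. In that comparison 37 of 38 members and 53.6% of all genes were above 0, and the members' median was 0.076 log2. Ndufa4 was then 0.14 ± 0.03 log2 higher (limma adjusted p = 0.059), Ndufab1 0.13 (0.115), Ndufa13 0.10 (0.453), and Ndufa9 0.08 (0.393). Endothelial and mural cell markers differed too with all naive libraries: 3 of 7 were lower at threat 24 h than in naive tissue (Pdgfrb, Rgs5 and Vtn), where 5.77% of all genes were lower. Their summed levels were 77.0 to 94.7 FPKM in threat 24 h and 86.3 to 131 FPKM in naive libraries, and their part in the result was not tested. Of 7 markers of CA1 pyramidal cells in the table, 6 averaged at least 1 FPKM and were tested, none was at 0 in all libraries and 0 passed, at a summed 198 to 283 FPKM in threat 24 h and 115 to 302 FPKM in naive libraries.

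At 24 h after place training, 4 of 38 members were higher than in naive CA1 and 0 lower, where 1.49% of all genes were higher and 3.56% lower. They were Ndufa4, Ndufa1, Ndufa13 and Ndufa5, and the naive libraries are those of the threat 24 h comparison, so the values of each are not independent. The median over members was 0.073 log2, with 34 of 38 above 0, and over all genes 0.018, with 55.7% above 0. Under quantile normalization 0 members passed, 0.601% of all genes were higher and 3.53% lower, and the medians were 0.018 for members and 0.010 for all genes.

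Ndufa4 had 151, 167, 161, 159 and 165 FPKM in the 5 place 24 h libraries, each above the highest naive value of 150.7, although replicate 1 only just so at 151.1. It was the 1 of 38 members to lie wholly above naive tissue, as did 0.198% of all genes. It was 0.16 ± 0.03 log2 higher (limma adjusted p = 0.00652), and was called in all 14 fits that left out 1 library. Ndufa1 (chromosome X, 124598917 to 124602556), a small membrane subunit needed for assembly of the membrane arm, had 90.5, 106, 110, 105 and 105 FPKM in place 24 h libraries and 78.7 to 102 with a median of 87.3 in naive ones. Replicate 1 lay inside the naive range. The difference was 0.23 ± 0.06 log2 (adjusted p = 0.0143). Ndufa13 had 53.4, 55.0, 59.8, 59.9 and 54.3 FPKM in place 24 h libraries, against a naive median of 49.9, and was 0.19 log2 higher (adjusted p = 0.0277). Ndufa5 (chromosome 4, 51368669 to 51377027), an accessory subunit of the matrix arm, had 70.3, 70.6, 75.8, 63.8 and 79.4 FPKM in place 24 h libraries and 46.2 to 77.6 with a median of 62.2 in naive ones, and was 0.23 log2 higher (adjusted p = 0.0375), though in only 6 of 14 fits that left out 1 library. Against naive 1 to 4 alone 14 members were higher and 1 lower (12.3% and 12.1% of all genes). Against naive 5 to 9 alone 0 passed (limma; 0.0152% and 0.0608% of all genes), with 13 members and 10.7% of all genes at an unadjusted p under 0.05, and 35 of 38 members and 55.2% of all genes above 0. Ndufa4 was then 0.13 ± 0.04 log2 higher (limma adjusted p = 0.161). The astrocyte glutamate transporter mRNA Slc1a2 was 0.37 log2 lower at place 24 h than in naive tissue (limma adjusted p = 0.0337). It was the only 1 of 8 astrocyte markers to pass, while 5 of the 8 were above 0, and its part in the result was not tested.

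**Figure D2:**
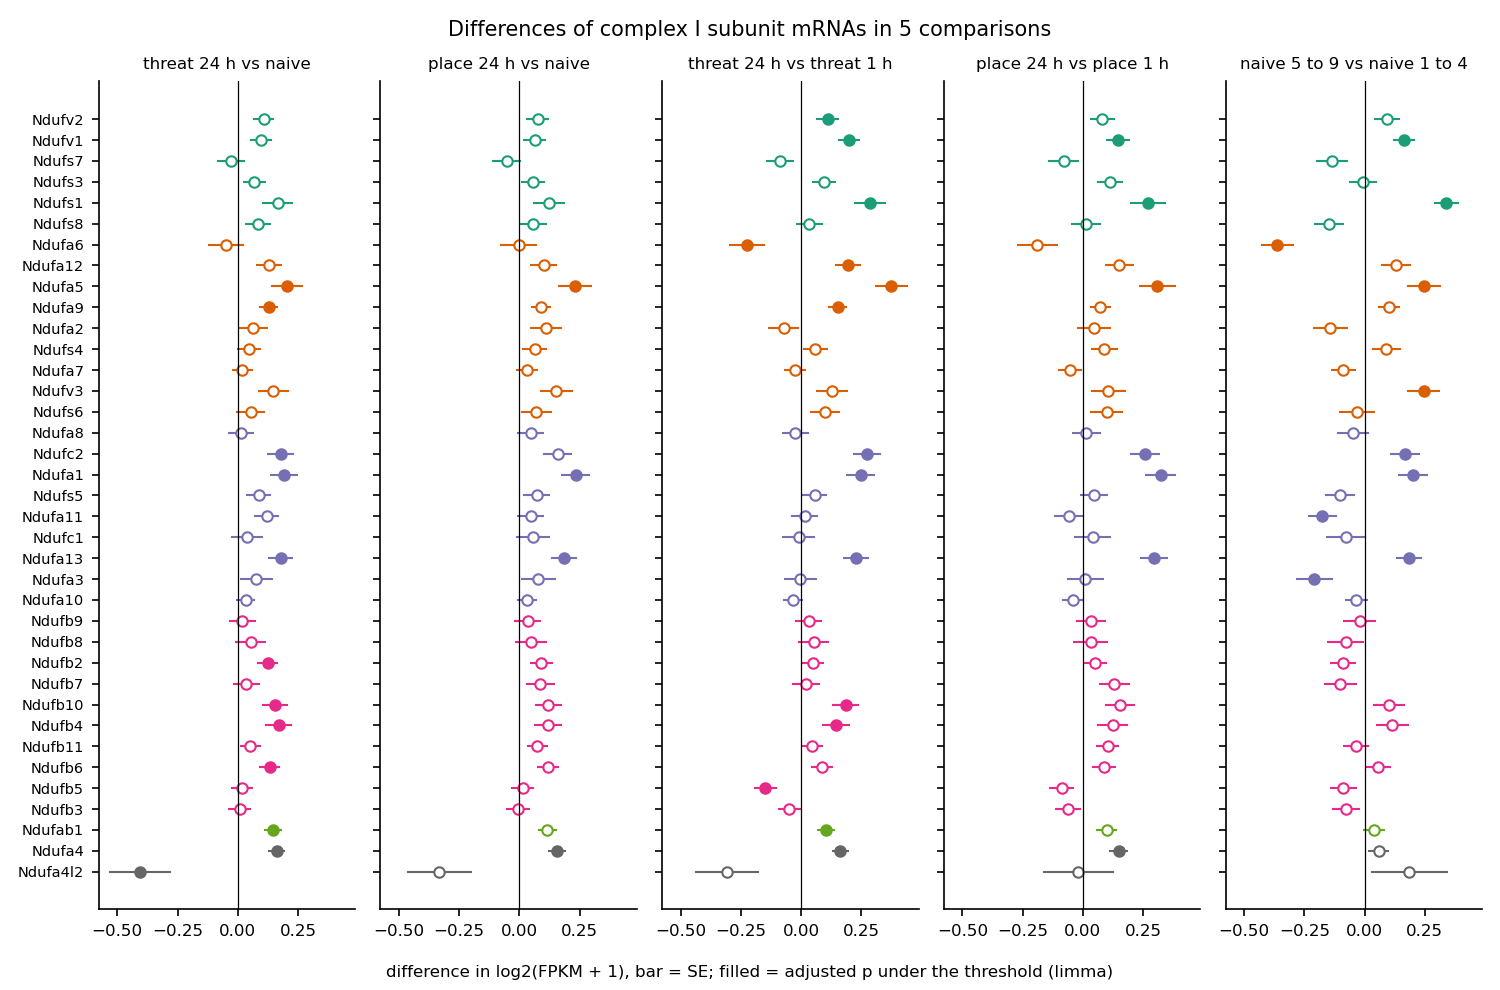
Difference in log2(FPKM + 1) with its SE for each member shown, in 5 comparisons, coloured by position in the complex as in the plot of levels, with filled points for a limma adjusted p under 0.05. Most points lie right of 0 at threat 24 h and place 24 h against naive tissue, and on both sides of 0 between naive 5 to 9 and naive 1 to 4.

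No member passed the test between threat and place libraries. At 24 h, 0 of 38 members passed in threat against place, 0 with an unadjusted p under 0.05, and the differences ran from −0.07 to 0.07 log2; 0% of all genes passed, with 2.9% at an unadjusted p under 0.05. The lowest p belonged to Ndufa11 (chromosome 9, 9331184 to 9335243), an accessory subunit of the proximal membrane arm, which was 0.07 ± 0.06 log2 higher (limma adjusted p = 1). It had 57.7 to 61.4 FPKM with a median of 60.1 in threat 24 h libraries and 52.4, 57.3, 58.4, 56.1 and 59.7 in place 24 h ones, which overlap. Ndufa9 was 0.04 log2 higher (adjusted p = 1). At 1 h likewise 0 of 38 passed, 0 had an unadjusted p under 0.05 (4.26% of all genes did), and differences ran from −0.09 to 0.22 log2, with Ndufa4l2 at 0.22 and Ndufb5 at 0.06. The difference of the threat-minus-place difference between 24 h and 1 h also gave 0 of 38 (0% of all genes; unadjusted 0 members and 2.74% of all genes). There the lowest p belonged to Ndufa4l2 (−0.29 log2) and Ndufa9 (0.08).

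At 1 h, 1 member differed from naive tissue. Ndufb5 (chromosome 2, 138791054 to 138804599), an accessory subunit of the distal membrane arm, had 44.0 to 49.7 FPKM with a median of 48.0 in threat 1 h libraries and 39.3 to 45.7 with a median of 43.1 in naive ones. All 8 threat 1 h libraries lay above the naive median, and 6 of them above every naive library. It was 0.16 ± 0.04 log2 higher (limma adjusted p = 0.0317), 1 member of 38, where 0.806% of all genes were higher and 0.122% lower; 8 members and 16.1% of all genes had an unadjusted p under 0.05. It was called in 8 of 17 fits that left out 1 library, and neither against naive 1 to 4 alone (0.12 log2, limma adjusted p = 0.472) nor without threat 1 h replicates 4 and 7. Replicate 4 held a summed 6460 FPKM of choroid plexus markers, against at most 270.1 in the other groups, and its part in the call was not tested. In place 1 h against naive tissue 0 of 38 members passed (limma; 0.0912% of all genes were higher and 0.038% lower), and 8 members, against 9.76% of all genes, had an unadjusted p under 0.05. Ndufa6, an accessory subunit of the matrix arm, was 0.19 log2 higher (adjusted p = 0.346) and Ndufa4l2 0.31 lower (adjusted p = 0.377).

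Each training was then compared between times. After threat training, 14 members were higher and 2 lower at 24 h than at 1 h, where 12.5% of all genes were higher and 16.8% lower. Members of each arm were among the 14: 4 of 7 core subunits (among them Ndufv1, Ndufv2 and Ndufs1, which hold the flavin and iron-sulphur clusters), 3 of 9 matrix accessory subunits (Ndufa5, Ndufa9 and Ndufa12), 3 of 9 of the proximal membrane arm (Ndufa1, Ndufa13 and Ndufc2), 2 of 10 of the distal arm (Ndufb4 and Ndufb10), Ndufab1 and Ndufa4. The median over members was 0.058 log2, with 27 of 38 above 0, and over all genes −0.010, with 47.6% above 0. Under quantile normalization 8 of the 14 were higher and 3 members were lower (14.3% and 13.4% of all genes), with medians of 0.007 for members and 0.014 for all genes. The 8 were Ndufa1, Ndufa4, Ndufa5, Ndufa9, Ndufa13, Ndufc2, Ndufs1 and Ndufv1.

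Ndufa5 had the largest difference. It had 63.9 to 73.4 FPKM with a median of 71.8 in threat 24 h libraries and 51.0 to 58.8 with a median of 53.7 in threat 1 h ones, without overlap, and was 0.37 ± 0.06 log2 higher (limma adjusted p = 7.52e-05). Ndufc2 (chromosome 1, 168576229 to 168582496), a membrane subunit, had 93.1 to 109 FPKM with a median of 104.4 in threat 24 h and 76.5 to 90.4 with a median of 85.3 in threat 1 h libraries, also without overlap, and was 0.27 ± 0.05 log2 higher (adjusted p = 0.000257). Ndufa4 stood at a median of 160.0 in threat 24 h and 144.8 FPKM in threat 1 h libraries, and was 0.16 log2 higher (adjusted p = 0.000344). The lowest threat 24 h value of each of these 3 genes lay above its highest threat 1 h value.

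Ndufv1 (chromosome 1, 226124946 to 226130037), the core subunit that binds NADH and flavin, had 84.5 to 101 FPKM with a median of 94.6 in threat 24 h libraries and 76.5 to 87.4 with a median of 80.8 in threat 1 h ones, and was 0.20 log2 higher (limma adjusted p = 0.000592). In all, 9 of 38 members, and 4.05% of all genes, had threat 24 h values wholly above those of threat 1 h: Ndufa1, Ndufa4, Ndufa5, Ndufa9, Ndufa12, Ndufa13, Ndufab1, Ndufc2 and Ndufs1. Of the 2 lower members, Ndufb5 had 40.2 to 45.7 FPKM with a median of 42.9 in threat 24 h and 44.0 to 49.7 with a median of 48.0 in threat 1 h libraries (−0.15 ± 0.04 log2, limma adjusted p = 0.00943). Ndufa6 (chromosome 7, 123567781 to 123571638) had 73.7 to 84.9 FPKM with a median of 79.5 in threat 24 h and 82.9 to 99.9 with a median of 94.3 in threat 1 h libraries (−0.22 ± 0.07 log2, adjusted p = 0.0176). Of the second rows, NDUFB4 on X was 0.24 log2 lower (adjusted p = 0.0084) while the Ndufb4 row on 11 was 0.15 higher (adjusted p = 0.038), and Ndufs5 on 5 and Ndufv3 on 20 did not pass (−0.10 and −0.01).

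After place training, 7 members were higher and 0 lower at 24 h than at 1 h (6.61% of all genes higher, 6.64% lower), namely Ndufa1, Ndufa4, Ndufa5, Ndufa13, Ndufc2, Ndufs1 and Ndufv1. The threat and place comparisons of times share no library, but both came from 1 fit, which shares its estimate of the spread. These 7 of 7 were among the 14 higher after threat training. The matching overlap over all genes is not given here, so this count is not read as particular to the members. The median over members was 0.084 log2, with 30 of 38 above 0, and over all genes 0.009, with 52.9% above 0; under quantile normalization 6 members were higher and 1 lower (5.63% and 6.47% of all genes), with medians of 0.030 for members and 0.010 for all genes. Of the 38 members 7, the same 7, and of all genes 4.11%, had place 24 h values wholly above those of place 1 h; a called gene tends not to overlap. Ndufa13 had 53.4, 55.0, 59.8, 59.9 and 54.3 FPKM in place 24 h libraries and 42.5 to 51.0 with a median of 45.5 in place 1 h ones, and was 0.30 ± 0.05 log2 higher (limma adjusted p = 0.000955). Ndufa1 had a median of 105.4 FPKM in place 24 h and 83.9 in place 1 h libraries (0.32 log2, adjusted p = 0.00117), Ndufc2 99.5 and 86.7 (0.26 log2, adjusted p = 0.00451), and Ndufa5 70.6 and 58.1 (0.31 log2, adjusted p = 0.00527).

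Some cell type markers differed between the times as well. For comparison, 12.5% of all genes were higher and 16.8% lower at threat 24 h than at threat 1 h. At place 24 h against place 1 h these shares were 6.61% and 6.64%. Of 7 endothelial and mural markers 5 were lower at threat 24 h than at threat 1 h (Rgs5, Flt1, Pecam1, Pdgfrb and Vtn), at a summed 77.0 to 94.7 FPKM in threat 24 h and 89.7 to 123 in threat 1 h libraries, and of 8 astrocyte markers 2 were lower (Slc1a2 and Aldh1l1). At place 24 h all 3 blood markers tested were higher than at place 1 h, at a summed 99.8 to 293 against 74.3 to 123 FPKM, and 0 endothelial markers passed. Of 9 GABAergic interneuron markers 1 was higher at threat 24 h than at threat 1 h (Gad1, 0.21 log2), and 1 was higher and 1 lower at place 24 h than at place 1 h (Slc32a1 and Npy). Of 7 microglia markers 1 was higher after threat (C1qa) and 2 after place training (C1qa and P2ry12). Their summed level was 95.01 to 115 FPKM in threat 24 h against 84.4 to 112 in threat 1 h libraries. It was 99.8 to 129 in place 24 h against 74.9 to 104 in place 1 h ones. Of the 6 CA1 pyramidal markers 1 was higher (Man1a1, 0.60 log2) and of 8 oligodendrocyte markers 1 lower (Mbp, −0.43 log2) at threat 24 h than at threat 1 h. In that comparison 5 of the 8 oligodendrocyte markers were above 0, at a median of 0.026 log2. At place 24 h 1 astrocyte marker was lower than at place 1 h (Slc1a2). Their part in the differences of the complex I mRNAs was not tested.

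**Figure D3:**
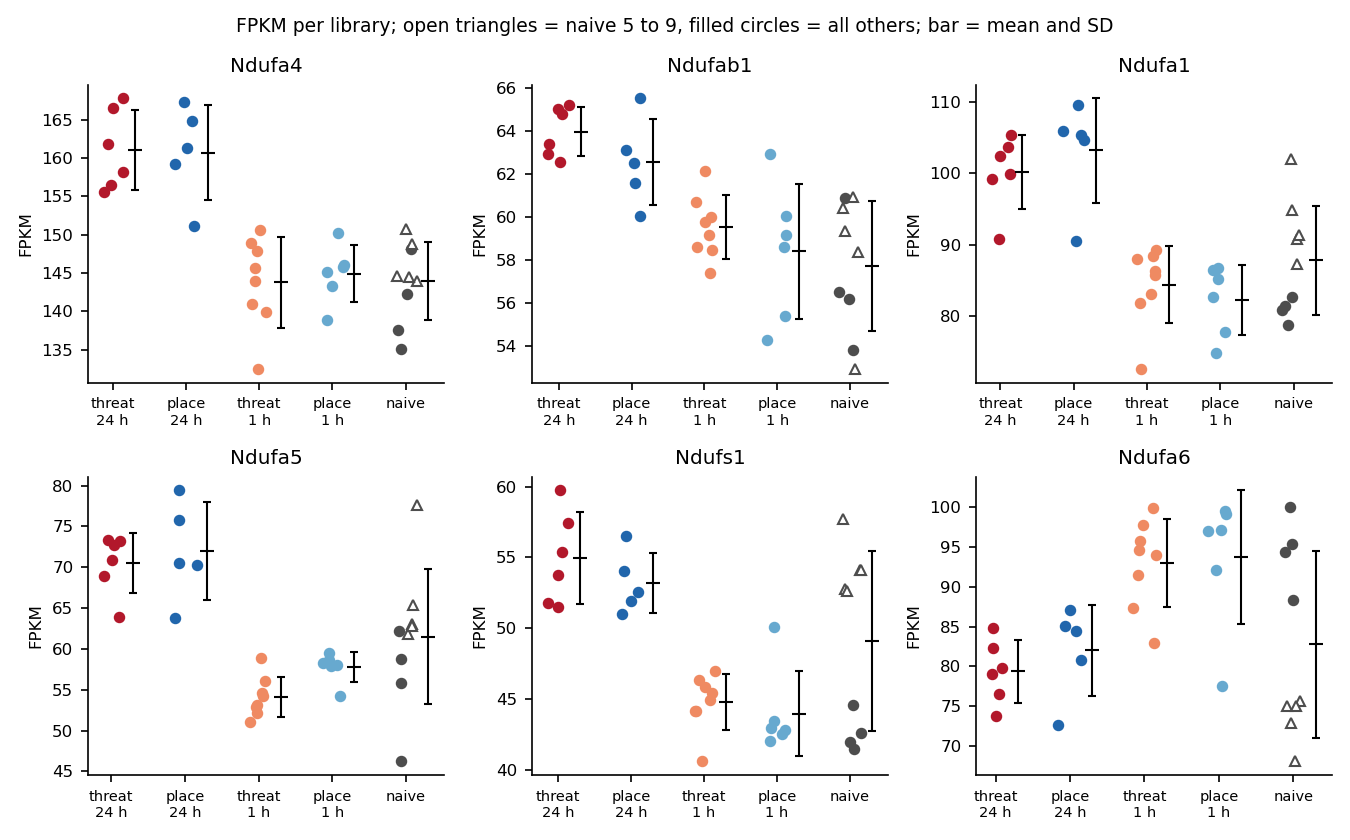
FPKM in each library of 6 members, with the mean and SD of each group beside the points and naive 5 to 9 as open triangles; the vertical axes do not start at 0. Ndufa4 is above 151 FPKM in all threat 24 h and place 24 h libraries and at or below 151 in the rest, whereas for Ndufs1 naive 5 to 9 lie above, and for Ndufa6 below, every naive 1 to 4 library.

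Part of the difference between times was also seen among naive libraries. Between naive 5 to 9 and naive 1 to 4, a comparison added after the data had been seen, 7 members were higher and 3 lower, where 8.61% of all genes were higher and 10.4% lower, and the median over members was −0.014 log2, with 18 of 38 above 0 (49.1% of all genes). The lowest p belonged to Ndufs1 (chromosome 9, 69728736 to 69762079), named here after its values were seen. It had 52.8, 52.6, 54.1, 57.7 and 54.1 FPKM in naive 5 to 9 and 42.6, 44.6, 41.5 and 42.0 in naive 1 to 4, with no overlap (0.34 log2, limma adjusted p = 8.92e-06). Its levels in threat 24 h (51.5 to 59.7 FPKM) and place 24 h libraries (51.0 to 56.5) lay with naive 5 to 9, and those in threat 1 h (40.6 to 47.0) and place 1 h libraries (42.1 to 50.1) all lay below naive 5 to 9.

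Ndufa6 showed the same with the opposite sign. It had 75.1, 68.0, 72.9, 75.6 and 75.0 FPKM in naive 5 to 9 and 95.4, 100, 88.3 and 94.4 in naive 1 to 4 (−0.36 log2, limma adjusted p = 0.000108), beside group means of 79.4 in threat 24 h, 82.0 in place 24 h, 93.0 in threat 1 h and 93.8 FPKM in place 1 h libraries. Of the 14 members higher at threat 24 h than at threat 1 h, 6 were among the 7 higher in naive 5 to 9 than in naive 1 to 4 (Ndufa1, Ndufa5, Ndufa13, Ndufc2, Ndufs1 and Ndufv1). The groups compared share no library, but each spread was estimated over all 34 libraries. The matching overlap over all genes is not given here, so this count is not read as particular to the members. Between the blocks Ndufv3 was the other higher member, and Ndufa3 and Ndufa11 were lower with Ndufa6. Ndufa4 did not pass between the blocks: it stood at 147 ± 3.0 FPKM (SD, n = 5) in naive 5 to 9 and 141 ± 5.8 (n = 4) in naive 1 to 4. Of the second rows, NDUFB4 on X and Ndufs5 on 5 were each 0.30 log2 lower in naive 5 to 9 (limma adjusted p = 0.00259 and 0.00717). At 1 h the block decided the count: against naive 5 to 9 alone, 6 members were higher and 6 lower in threat 1 h libraries (13% and 7.06% of all genes), and 3 higher and 6 lower in place 1 h ones (7.09% and 5.69%), while against naive 1 to 4 alone 0 passed in either (limma; 0.213% and 0.0228% of all genes in threat, 0.0304% and 0.0152% in place; 2 members in threat and 1 in place had an unadjusted p under 0.05, against 8.72% and 9.06% of all genes). Endothelial and mural markers also differed between the blocks, 3 of 7 being lower in naive 5 to 9, at a summed 86.3 to 107 FPKM in naive 5 to 9 and 105 to 131 in naive 1 to 4. Of 9 GABAergic markers 2 were higher (Gad1 and Gad2) and 1 lower (Npy), and of 8 astrocyte markers 1 was lower (Slc1a2). Of all genes, 8.61% were higher and 10.4% lower between the blocks. The part of these markers was not tested.

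**Figure D4:**
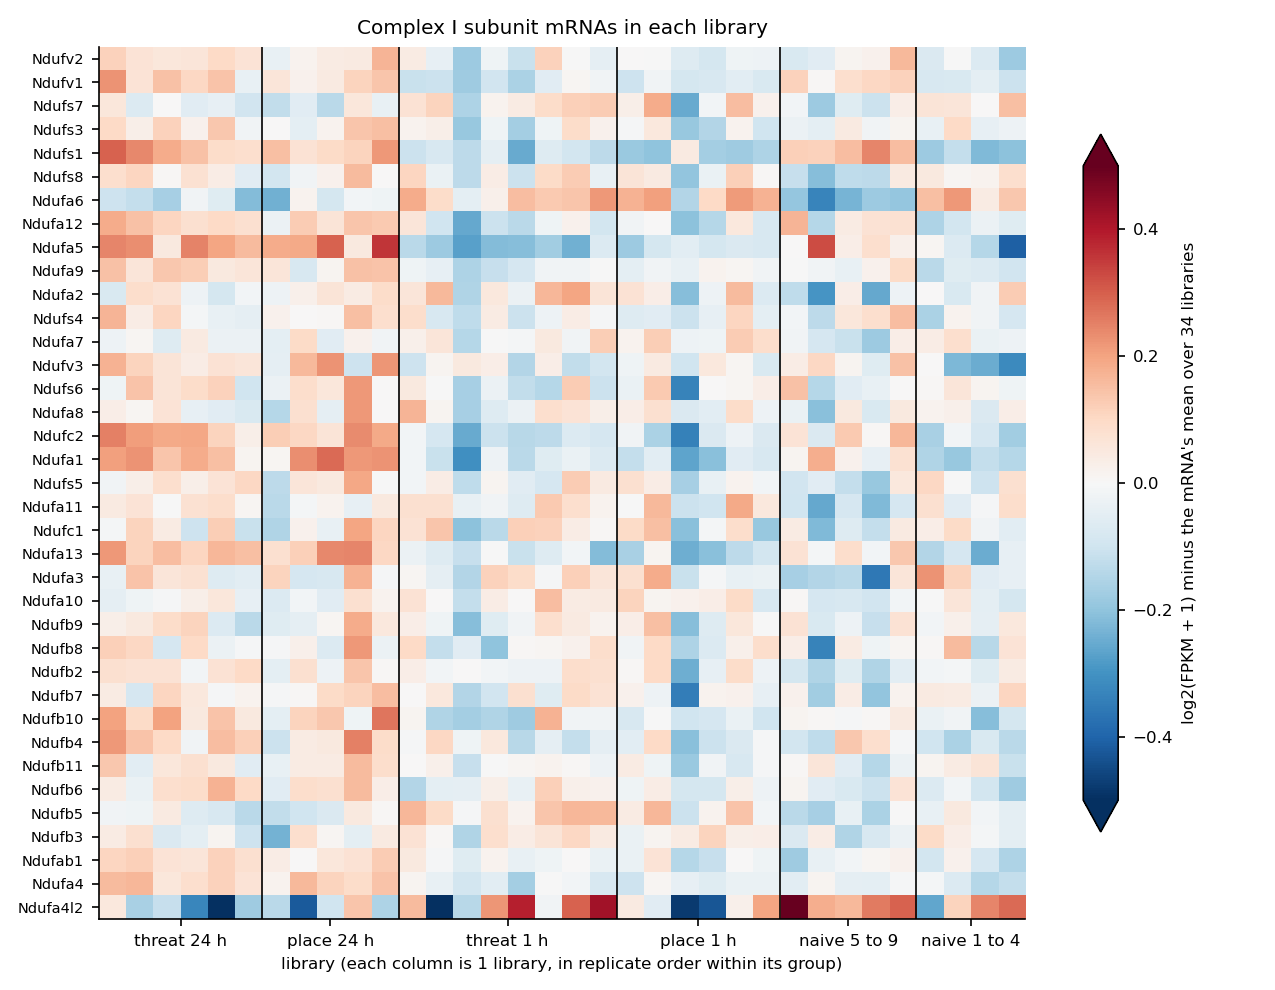
Deviation of each member shown from its own mean over 34 libraries, in log2(FPKM + 1), for every library (columns), with groups separated by lines and colours cut at the ends of the bar. Ndufs1, Ndufa5, Ndufc2 and Ndufa1 are red in the threat 24 h and place 24 h columns and mostly blue in the 1 h and naive 1 to 4 columns, and Ndufa6 shows the opposite colours.

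Of 17 complex I assembly factors tested, 2 were higher and 1 lower at threat 24 h than in naive tissue (4.32% and 5.77% of all genes): Chchd4, part of the import and folding pathway of the intermembrane space (0.23 log2, limma adjusted p = 0.00792), Timmdc1, a factor of the membrane arm (0.15, 0.0425), and Foxred1, a flavoprotein needed for assembly (−0.27, 0.00358). At place 24 h 0 were higher than in naive tissue and Foxred1 was lower (−0.28, adjusted p = 0.00974). At threat 24 h against threat 1 h the count was 4 higher and 1 lower (12.5% and 16.8% of all genes), with Foxred1 at −0.27, Timmdc1 at 0.19 and Ndufaf1, which acts on an early membrane intermediate, at 0.26 log2. At place 24 h against place 1 h Chchd4 was higher (0.20) and Foxred1 lower (−0.27). Foxred1 was also lower in naive 5 to 9 than in naive 1 to 4 (−0.26, limma adjusted p = 0.00326), where 5 factors were higher (8.61% of all genes, with 10.4% lower). Among these 5 were Ndufaf1 (0.31 log2) and Chchd4 (0.18), while Timmdc1 did not pass between the blocks.

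Of 16 regulators of mitochondrial gene expression tested, 0 were higher at 24 h in any of these 4 comparisons. Polrmt, the RNA polymerase of mitochondrial DNA, was lower in each, with differences of −0.35 log2 at threat 24 h (limma adjusted p = 0.0012) and −0.28 at place 24 h (0.0198) against naive tissue, −0.52 at threat 24 h against threat 1 h (3.73e-06) and −0.36 at place 24 h against place 1 h (0.00287). It was also lower in naive 5 to 9 than in naive 1 to 4 (−0.36, limma adjusted p = 4.46e-05), where Tfb1m (0.30 log2) and Esrrg (0.28) were higher and Ppara (−0.24) lower. Pprc1, a coactivator of the PGC-1 family, was 0.12 log2 lower at threat 24 h than at threat 1 h (adjusted p = 0.0279). At 1 h, 0 of either list passed against naive tissue (limma), with 2 regulators in threat and 1 in place, and 0 and 1 assembly factors, at an unadjusted p under 0.05.

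Captured methylated DNA was then compared at the same genes, over bins of 500 nt lying in a member gene or up to 1000 nt before its start. There were 1028 such bins, of which 58 (5.64%, against 6.04% of all bins) held enough captured DNA to be tested at 1 h, in 16 genes, and 9 (0.875%, against 1.47%) at 24 h, in 3 genes. At the starts themselves little DNA was captured. Within 1 kb of the start the mean captured level was a median of 0.192 times the input level at 1 h over the 38 members. Of the 38, 33 lay below the input. Over 12683 other genes at 1 FPKM or more the median was 0.182, and 10402 of them lay below the input. At 24 h the medians were 0.378 and 0.440. Ndufa5, Ndufc2 and Ndufa4, whose promoter sequences are given, stood at 0.0325, 0.0678 and 0.0515 times the input at 1 h. Along gene bodies the ratio was a median of 0.532 in 35 members and 1.06 in 11935 other genes at 1 h, and 0.845 and 1.12 at 24 h, with Ndufs8 (3.28) and Ndufv1 (2.48) highest among members at 1 h. Capture also depends on how many CG a region holds, which this ratio does not adjust for.

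The Ndufs6 row on chromosome 2 was the exception at the starts, with 0.960 RPKM captured and 0.215 RPKM in the input at 1 h, a ratio of 4.47 (2.05 at 24 h). That row lies where RefSeq lists the pseudogene Ndufs6-ps1. The row of Ndufv3, also at a listed pseudogene, had 1.44, and the next were Ndufa8 at 1.26, Ndufab1 at 1.13 and Ndufa6 at 1.05.

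**Figure D5:**
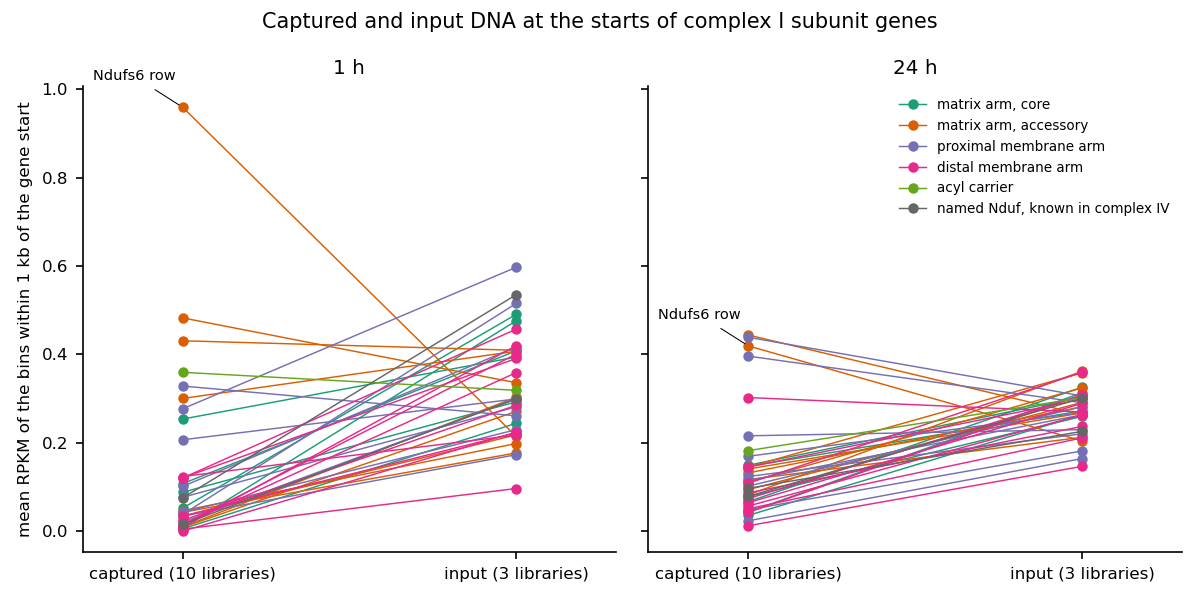
Mean RPKM of captured (10 libraries) and input DNA (3 libraries) in bins within 1 kb of the start of each member gene shown, joined by a line per gene, at 1 h and 24 h. Most lines rise from captured to input at each time, and the Ndufs6 row, at 0.960 RPKM captured and 0.215 in the input at 1 h, falls most steeply.

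Between conditions, 0 of the 58 member bins passed at 1 h in any of 3 comparisons, and 0 of 9 at 24 h (limma, adjusted over 350378 bins at 1 h and 85335 at 24 h). Of all bins, counted in either direction, 0.016% passed in threat against naive, 0.00285% in place against naive and 0.0174% in threat against place at 1 h, and 0.0105%, 0.0082% and 7.7% at 24 h. The 7.7%, 6570 bins, came to 10 bins without place 24 h replicate 3, 2 bins without threat 24 h replicate 2 and 5 bins under quantile normalization. It rose to 15286 bins higher and 9 lower without place 24 h replicate 1. Unadjusted p under 0.05 was reached by 11, 1 and 12 member bins at 1 h and by 3, 1 and 2 at 24 h, in the same order, and by 15.4%, 3.34% and 9.98% of all bins at 1 h and 23.1%, 4.28% and 37.1% at 24 h. An edgeR quasi-likelihood test on the reads recovered from the RPKM values also passed 0, with 6, 2 and 9 at 1 h and 3, 2 and 4 at 24 h unadjusted. Bins as a whole were shifted in threat libraries, by a median of 0.17 log2 against naive and 0.13 against place at 1 h, and by 0.23 and 0.28 at 24 h; the member bins, at 0.22 and 0.22, then 0.18 and 0.19, are to be read against that. Under quantile normalization the member medians were 0.06 and 0.06, then −0.05 and −0.07.

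The bin with the lowest p lay inside Ndufa7, chr7:18867501-18868000 of rn5, 6640 nt after the gene's start; Ndufa7 encodes an accessory subunit of the matrix arm. It held 5.53, 5.32 and 3.72 RPKM in threat 1 h libraries, 3.48, 2.25, 3.31 and 4.03 in place 1 h ones and 2.08, 3.03 and 3.01 in naive ones, and 0.472, 0.701 and 0.681 in the input. Threat values lay above all naive ones and overlapped with place, in a bin picked for its low p. In threat against naive at 1 h, the lowest adjusted p of any member bin was 0.437 under quantile normalization (limma) and 0.245 with edgeR. In the main fit the Ndufa7 bin differed from naive by 0.78 ± 0.19 log2 on the log2(RPKM + 0.25) scale (limma adjusted p = 0.115), and from place by 0.54 (adjusted p = 0.453). The adjacent bin was 0.72 higher than in naive libraries (adjusted p = 0.137). Without threat 1 h replicate 3, the lowest of its group here, 2 of 58 member bins passed against naive, as did 2.31% of all bins.

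At 24 h the lowest p in threat against naive belonged to a bin of Ndufa9, chr4:232217001-232217500, 3896 nt after the start. It held 1.32, 1.17 and 1.25 RPKM in threat 24 h, 0.978, 1.03, 1.09 and 1.14 in place 24 h and 0.710, 0.827 and 0.565 in naive 24 h libraries, and 0.481, 0.376 and 0.285 in the input. The 3 groups did not overlap, but the bin was picked for its low p, and the share of all bins without overlap is not given. Threat was 0.66 ± 0.18 log2 above naive (limma adjusted p = 0.096) and place 0.47 above naive (adjusted p = 0.996). In threat against naive at 24 h, the lowest adjusted p of any member bin was 0.749 under quantile normalization (limma) and 0.959 with edgeR. At 1 h the Ndufa9 bin had 2.86 ± 0.39 RPKM in threat and 2.80 ± 0.18 in naive libraries (SD, n = 3 each), a difference of 0.02 log2, and 2.81 ± 1.12 in place libraries (n = 4). The next lowest p in threat against naive at 24 h belonged to a bin of Ndufa12 (−0.39 log2, adjusted p = 0.173). In threat against place at 1 h the Ndufa7 bin had the lowest p and a bin of the Ndufs6 row the next (0.52 log2, adjusted p = 0.457). In place against naive at 24 h the Ndufa9 bin came before one of Ndufa12 (0.31, 0.996). In place against naive at 1 h the lowest p belonged to bins of Ndufa10 (0.42, adjusted p = 1) and Ndufa12 (0.38, 1). In threat against place at 24 h it belonged to 2 bins of Ndufa12 (0.37, adjusted p = 0.0935, and −0.32, 0.131).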

How the data were processed

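RNA levels are FPKM per gene and captured or input DNA is RPKM in bins of 500 nt, both as deposited by the authors; RPKM is used as a signal that the authors scaled by length and depth. Per the submitters' processing notes, TopHat 1.4.0, Bowtie, DESeq2 and edgeR were used with builds mm10 and rn5; their roles and settings are not given in the sources used here. The deposited tables are titled with a mouse build, but positions on chromosome 1 reach 290094000 and follow rat rn5. The RNA was polyA+ and the libraries directional, per the labels' protocols.

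RNA was tested with limma 3.58.1 (trend) in R 4.3.3 on log2(FPKM + 1) over the 13153 genes that reached 1 FPKM in 5 libraries or more, with a mean per group, all 34 libraries and 29 residual degrees of freedom; Benjamini-Hochberg adjusted p under 0.05 was called. Depth is unknown for RNA, so no counting interval is given. MBD bins (full width, captured mean at least 1 RPKM and at least 2 times the input) were tested per time with limma on log2(RPKM + 0.25). All bin values were whole reads within 0.1 reads, 100% in each library, and edgeR 4.0.16 on these reads was the alternative, which called 0 member bins. Of 5805223 bins, 21 shorter ones were left out. Tables were handled in Python 3.11.15 with pandas 2.3.3, figures drawn with matplotlib 3.10.9, and the fits were tested on simulated data.

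The member genes and lists were chosen with earlier results of these data known. Values are given for up to 4 called members with the lowest p in each direction per RNA comparison (2 where none passed), the 2 highest and 2 lowest levels, Ndufa4, Ndufa4l2 and Ndufab1, 2 member bins per MBD comparison, and up to 3 called genes per other list. Symbols were matched ignoring case, so NDUFB4 on X and Ndufb4 on 11 count as 1 symbol. Alternatives were another scaling (quantile, median ratio), other pseudocounts and filters, only the groups compared in the fit, a replicate block, each naive block alone and leaving out libraries. The naive blocks were split because many mRNAs differed between them in earlier work on these data. The comparison of the blocks with each other was added after the data were seen. The results of 1 member enter the counts but are not reported here by name or in the figures.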

Additional observations from a re-analysis of the deposited data

Results flagged for a closer look

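Among 80 groups of values of the named members, 4 held a library far from the rest of its group, where chance alone gives about 1 in 20. Ndufa1 stood at 72.53 FPKM in threat 1 h replicate 3, while the other threat 1 h libraries lay between 81.86 and 89.18. Ndufa1 stood at 90.54 FPKM in place 24 h replicate 1, with the others at 104.6 to 109.5. Ndufa5 stood at 54.28 FPKM in place 1 h replicate 1, with the others at 57.95 to 59.49. Ndufa6 stood at 77.52 FPKM in place 1 h replicate 3, with the others at 92.15 to 99.58. The 2 replicates numbered 3 were also the libraries with the lowest summed level of all members, 2347 FPKM in threat 1 h and 2326 FPKM in place 1 h.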

How the results depend on the processing

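Counts below are of members called out of 38. The matching shares of all genes are given above for quantile normalization and for each naive block alone. For the other RNA settings they are not given here, so those counts are not read as particular to the members. In threat 24 h against naive tissue (12 called), 1 was called under quantile normalization, 3 when the fit held the compared groups alone and 0 against naive 5 to 9 alone; leaving out 1 library gave 5 (without naive 3 or threat 24 h replicate 2) to 15 (without naive 9). In place 24 h against naive tissue (4 called), 0 were called under quantile normalization, with only the groups compared and against naive 5 to 9, 15 against naive 1 to 4, and 1 (without place 24 h replicate 3) to 7 (without naive 9) when leaving out 1 library. In threat 1 h against naive tissue (1 called), 0 were called under median-ratio scaling, with only the groups compared, under the replicate block, against naive 1 to 4 and without threat 1 h replicates 4 and 7, 12 against naive 5 to 9, and 0 to 2 when leaving out 1 library. In place 1 h against naive tissue (0 called), 9 were called against naive 5 to 9, and Ndufa6 was −0.0153 log2 against naive 1 to 4, where it was 0.19 with all naive libraries. Leaving out 1 library gave 13 to 16 in threat 24 h against threat 1 h, 6 to 8 in place 24 h against place 1 h, and 0 in threat against place. Same-numbered RNA libraries did not in general deviate together (58 pairs, r of −0.497 to 0.587, median −0.043, 17 over 0.1), so the numbers are not taken as pairs. The highest r was that of replicate 3 of place 1 h and threat 1 h, and these pairs do not cover the MBD libraries. With the numbers as a replicate block, 14 members were called at threat 24 h and 8 at place 24 h against naive tissue, and 1 of 9 MBD bins in threat against naive at 24 h (3.61% of all bins). Leaving out threat 1 h replicate 3 gave 2 of 58 MBD bins in threat against naive at 1 h (2.31% of all bins), and leaving out any other library gave 0. Of 633 values of named members under the alternatives, 569 kept direction and side of the threshold, 62 no longer passed, 1 newly passed and 1 changed sign. The causes were not tested.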
